A study of Homo sapiens with 10 samples.

Results

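OVCAR-3 cells that had survived 3 days in silica gel and then grown for 2 weeks in standard culture were compared with OVCAR-3 cells that had only been kept in standard culture. The 2 groups were taken from the labels, and no measured value put a library in a group. The comparison uses 4 of the 10 libraries of the study, 2 labelled Extracted (survivors) and 2 labelled Control. Of the 58222 genes in the table, the 15167 with at least 1 TPM in 2 or more of the 10 libraries were tested, and all of them are part of the comparison. OVCAR-3 is an established human ovarian adenocarcinoma line, grown here in medium with fetal bovine serum, and each condition had 2 biological replicates.

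The study held 5 groups of 2 libraries of total RNA. Control cells stayed in ordinary culture throughout. The groups Day1 and Day3 were held in the gel for 24 hours or 3 days, with no recovery named in their labels. Extracted cells lived through 3 days of immobilization and then had 2 weeks of recovery. Treated cells were never immobilized according to their labels: they lived through cisplatin, which crosslinks DNA with platinum, at 0.5 uM over 24 hours, and also recovered for 2 weeks. All 5 groups are the same line, and the Extracted and Treated groups hold only cells that lived through their exposure and the descendants of those cells. The Control libraries have no label for a culture time matched to the recovery, so that time in culture and recovery from the gel cannot be told apart.

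Immobilization in silica gel holds single cells in a rigid, porous mineral that confines them physically. After release, adherent carcinoma cells rebuild contacts with the plate through integrins and laminins, and the growth-factor and AP-1 circuits that respond to such contacts are well described in epithelial cells. AP-1 is a dimer of FOS-family and JUN-family transcription factors, and the EGF receptor ligand amphiregulin, the MAP kinase phosphatases and the matrix proteases are known to be induced through the same receptor and kinase pathways.

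The values are TPM, a measure of transcript abundance that is corrected for length and expressed as a share of 1 library total, so the sequencing depth behind a value is unknown. In bulk RNA, a lower share of cells that express a gene and less of its RNA per cell cannot be told apart. Between 13942 and 14100 genes reached 1 TPM in the 4 libraries. The 13 mRNAs of the mitochondrial genome held 16.7% and 15.8% of all TPM in Control and 11.1% and 10.6% in Extracted, and small-RNA genes held 3.21% in Extracted replicate 1 against 0.272% to 0.361% in the other 3. All 12 epithelial and ovarian markers checked were present in all 4 libraries, the lowest being MUC1 at 21.99 to 41.0 TPM, with the epithelial adhesion molecule EPCAM at 347.1 to 376.6 TPM. Of 10 fibroblast, 10 leukocyte, 9 endothelial and 8 mesothelial markers, 7, 8, 8 and 5 stayed below 1 TPM in all 4 libraries, and the leukocyte genes CD3E, CD3D and ITGAM were listed at 0. Summed TPM of the fibroblast list were 16 and 14.2 in Control and 7.53 and 8.46 in Extracted, of which COL1A1 held 12.9 and 10.6 in Control and 6.66 and 6.70 in Extracted. The other 3 lists reached 6.91 and 4.58 in Control against 4.35 and 3.70 in Extracted (leukocyte), 11.3 and 10.5 against 12.4 and 10.4 (endothelial), and 19.4 and 22.7 against 17.2 and 16.2 (mesothelial). Of 8 neural markers, 3 stayed below 1 TPM, and the others moved in both directions. SYT1 (4.29 and 4.84 against 2.39 and 2.74 TPM), MAP2 (14.3 and 15.97 against 7.62 and 10.8) and TUBB3 (86.7 and 81.6 against 67.6 and 79.99) were lower in both Extracted libraries and were not called, and MBP was called higher in Extracted (55.1 and 58.0 against 36.0 and 38.2 TPM, log2 difference 0.60, adjusted p = 0.0380). Summed, the neural list was at 147.0 and 146.9 in Control and 138.7 and 156.8 in Extracted. The part of these markers in the results below was not tested.

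After 2 weeks of recovery the survivors differed from Control in 302 genes (1.99% of those tested), 130 of them higher (0.857%) and 172 lower (1.13%). Among the genes named by a fixed rule of size, level and separation, the strongest rises were in FOSL1, AREG, PI3, GDF15 and CD44, and the strongest falls in WNT11, H19, the read-through gene TMEM189-UBE2V1, TMPRSS15 and SELENOP. A gene was called at an adjusted p under 0.05 in limma, and all differences are log2(TPM + 1), Extracted minus Control, a scale that understates the change of genes with low TPM. In all 302 called genes the values of the 2 groups did not overlap, so a lack of overlap adds no support to a call. Of all tested genes, 27.3% were higher in both Extracted libraries than in both Control libraries, and 30.3% lower. At least a 2-fold difference was seen for 31 of the higher and 37 of the lower genes. The median size of the difference was 0.75 over the called genes and 0.17 over all tested genes. With no adjustment 2728 genes had p under 0.05. Counts of called genes in the lists below are to be read beside the 0.857% called higher and 1.13% called lower over all tested genes. A single call in a list is no result about that list.

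How firmly these calls stand depends on both libraries of each group. Leaving out Control replicate 1 left 7 calls, without Control replicate 2 there were 2, without Extracted replicate 1 there were 19, and without Extracted replicate 2 there were 8. In those 4 fits the direction of all 302 genes was fixed beforehand, since their groups do not overlap. Of them 297 kept at least 75% of their difference. TMPRSS15 was the gene called in all 4, FN1, RGCC and MN1 were called in 3, and 20 genes were called in at least 1. The balance of rises and falls also moved with the scaling: 43.0% of the calls were higher as deposited, against 23.1% (240 higher, 798 lower) when only nuclear protein-coding genes, rescaled to an equal sum, were compared. In that scaling the median of all genes shifted to -0.09, from -0.02.

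**Figure D1:**
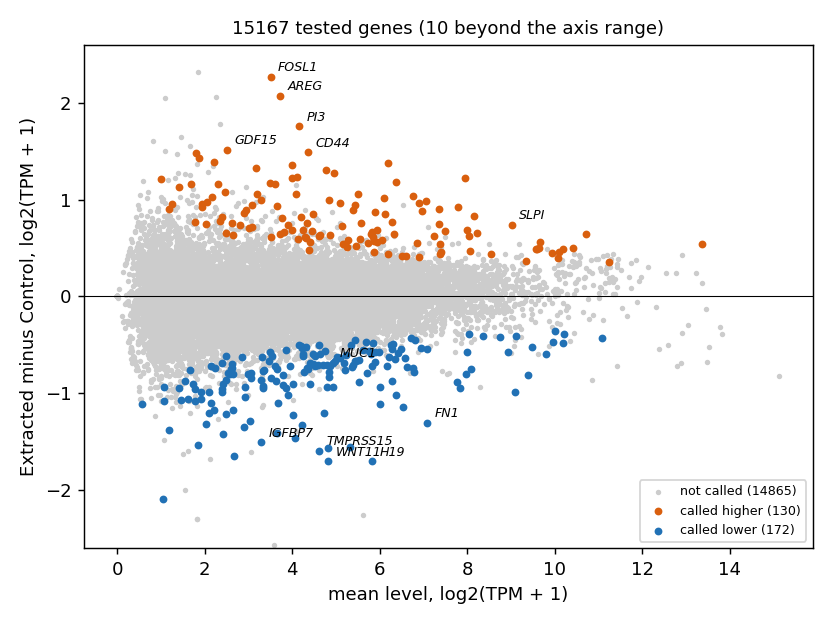
Difference between Extracted and Control, in log2(TPM + 1), against the mean level of the 2 groups on the same scale, for each tested gene (n = 2 libraries per group). Grey points are genes not called, orange the 130 called higher and blue the 172 called lower. Called genes are seen at all levels, with FOSL1 and AREG at the top and WNT11 and H19 near the bottom, and 10 genes lie beyond the plotted range, 1 of them called, the small-RNA gene uc_338, which was listed at 0 in both Control libraries and at 24.8 and 13.6 TPM in Extracted.

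The named gene with the largest rise was FOSL1 (ENSG00000175592, GRCh38 chr11:65892049-65900573), which encodes FRA1, a FOS-family subunit of AP-1. It stood at 4.14 and 4.08 TPM in Control and at 18.8 and 29.6 TPM in Extracted (log2 difference 2.27, SE 0.26, adjusted p = 0.00500). Both Extracted libraries lay above both Control libraries, and replicate 2 was the higher Extracted library. FOS, the founding member of the family, had 8.14 and 9.74 TPM in Control and 27.3 and 21.7 in Extracted (1.35, SE 0.15, adjusted p = 0.00500). EGR1, a zinc-finger immediate-early factor, had 18.9 and 19.4 TPM against 44.3 and 34.9 (1.00, SE 0.14, adjusted p = 0.0142). The groups did not overlap for either gene. Of the 21 measured AP-1 and immediate-early genes these were the 3 that rose, 0 fell, and the median was 0.19 against -0.02 over all genes. The JUN-family partners JUN, JUNB and JUND were at 0.11, 0.17 and 0.15, and none was called. FOSB, at 0.62, and FOSL2, at -0.20, were not called either.

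In the gel the 3 genes followed different courses. On Day1 FOSL1 was at 33.2 and 18.3 TPM, in the range of Extracted, while FOS was at 7.97 and 6.91 TPM and EGR1 at 9.28 and 9.10 TPM, below both Extracted libraries. On Day3 FOSL1 was at 6.29 and 6.85 TPM, FOS averaged 5.55 TPM and EGR1 was at 8.07 and 9.19 TPM. Extracted lay above Day3 by 1.70 for FOSL1 (adjusted p = 0.00222), by 1.95 for FOS (adjusted p = 0.000119) and by 2.07 for EGR1 (adjusted p = 8.6e-05). The cisplatin survivors had 22.9 and 21.6 TPM of FOSL1 and a mean of 24.5 TPM of FOS. Extracted differed from Treated by 0.08 for FOSL1 (adjusted p = 0.860), by -0.01 for FOS (0.977) and by -0.30 for EGR1 (0.180), none of them called.

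The RefSeq promoters of 4 called genes are shown because they hold letters that the factors of these pathways are known to bind, and because their genes rose. Each is the 250 bases before the start in the RefSeq table, 5' to 3' on the strand of the gene, from RefSeq on GRCh38.p14, with the motif in capitals. Positions count back from the base before the start, which is -1. The serum response factor, which recruits MAP-kinase-activated cofactors, binds the CArG box, and EGR1 holds 2 at -105 and -83. Amphiregulin's gene AREG holds a cAMP response element, TGACGTCA, the site of CREB and ATF dimers, at -65. LAMA3 holds the AP-1 letters TGANTCA at -125 and -69. Its RefSeq start lies 183.6 kb inside the GENCODE gene, and TPM per gene do not tell which start was used. CTGF, listed by RefSeq as CCN2, holds the letters GGAATG, bound by the TEAD partners of YAP, at -169, -104 and -95.
EGR1 (chr5:138465229-138465478, plus strand): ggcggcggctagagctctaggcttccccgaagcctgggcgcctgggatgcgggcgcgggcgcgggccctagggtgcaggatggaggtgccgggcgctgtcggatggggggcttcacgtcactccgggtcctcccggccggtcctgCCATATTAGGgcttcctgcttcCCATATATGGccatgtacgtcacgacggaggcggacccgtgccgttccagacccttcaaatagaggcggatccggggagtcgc
AREG (chr4:74444886-74445135, plus strand): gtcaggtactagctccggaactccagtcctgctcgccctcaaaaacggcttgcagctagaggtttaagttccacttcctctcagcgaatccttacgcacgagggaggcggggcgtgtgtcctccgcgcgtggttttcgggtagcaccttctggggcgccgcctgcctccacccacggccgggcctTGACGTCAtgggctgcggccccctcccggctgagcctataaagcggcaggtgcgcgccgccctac
LAMA3 (chr18:23872770-23873019, plus strand): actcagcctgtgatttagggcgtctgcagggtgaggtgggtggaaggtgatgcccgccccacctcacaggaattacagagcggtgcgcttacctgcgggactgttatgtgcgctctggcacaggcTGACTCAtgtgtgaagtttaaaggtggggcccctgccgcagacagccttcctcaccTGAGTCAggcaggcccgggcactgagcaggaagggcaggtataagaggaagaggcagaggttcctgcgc
CCN2 (chr6:131951373-131951622, minus strand): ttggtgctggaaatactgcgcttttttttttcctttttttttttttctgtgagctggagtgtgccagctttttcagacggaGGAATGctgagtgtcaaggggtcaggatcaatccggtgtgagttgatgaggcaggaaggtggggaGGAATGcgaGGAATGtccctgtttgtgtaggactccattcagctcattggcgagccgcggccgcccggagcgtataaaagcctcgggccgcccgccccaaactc
Both strands were searched, and 10989 of the tested genes matched a RefSeq promoter by symbol, 87 of those called higher and 126 of those called lower. TGANTCA was in 3.82% of the matched promoters, in 4 of the 87 and in 10 of the 126. The cAMP response element was in 2.88%, in 4 of the 87 and 3 of the 126, and the CArG box in 0.983%, in 4 of the 87 and 1 of the 126. GGAATG was in 9.37%, in 8 of the 87 and 14 of the 126. A match of letters is not evidence that a factor was bound.

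AREG (ENSG00000109321, chr4:74445134-74455009), a ligand of the EGF receptor, had the next largest rise. Its levels were 5.62 and 5.25 TPM in Control and 22.5 and 30.3 TPM in Extracted (2.07, SE 0.23, adjusted p = 0.00500). The groups lay far apart, and Treated was higher again at 101.5 and 77.3 TPM. On Day1 AREG was at 24.3 and 14.9 TPM, above both Control libraries. Extracted was above Day3 by 2.19 (adjusted p = 0.000443) and below Treated, at a difference of -1.73 (adjusted p = 0.00301). TGFA, another ligand of the same receptor, rose from 10.2 and 10.2 to 14.97 and 18.8 TPM (0.67, SE 0.14, adjusted p = 0.0477). Among the 15 ligands and receptors of this family these 2 rose and 0 fell. The receptors EGFR (0.18), ERBB2 (-0.32), ERBB3 (-0.30) and ERBB4 (0.54) were not called, and neither was the ligand HBEGF (-0.14).

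Among 19 genes of the MAP kinase feedback circuit 1 rose and 0 fell (5.26% called, against 1.99% of all tested genes), and the list's median was 0.32. The gene that rose was DUSP5, a nuclear phosphatase that inactivates ERK, at 10.2 and 10.4 TPM in Control and 23.8 and 27.7 TPM in Extracted (1.24, SE 0.14, adjusted p = 0.00500). Its values did not overlap between the groups. DUSP6 (0.63, adjusted p = 0.192), the receptor-signalling inhibitor SPRY1 (0.58, adjusted p = 0.0675) and the ERK-responsive factor ETV5 (0.56, adjusted p = 0.263) were not called. IRS2, which couples insulin and IGF receptors to PI3 kinase, rose by 0.62 to 29.8 and 28.9 TPM (adjusted p = 0.0265).

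Secreted defence genes formed another group of rises. PI3, which encodes the elastase inhibitor elafin, was at 8.88 and 8.29 TPM in Control and at 25.2 and 39.0 TPM in Extracted (1.76, SE 0.19, adjusted p = 0.00500). SLPI, a related protease inhibitor of mucosal fluids, was at 387.8 and 413.4 TPM against 662.0 and 678.9 TPM (0.74, SE 0.12, adjusted p = 0.0209). The calcium-binding S100A14 was at 34.7 and 36.0 against 57.1 and 64.3 TPM (0.76, adjusted p = 0.0244). The groups were separate for all 3, and Extracted stayed well below Treated. PI3 was above Control in the gel too, at 30.8 and 24.1 TPM on Day1 and 20.05 and 24.2 on Day3. That difference from Treated was -2.13 for PI3, -0.81 for SLPI and -1.98 for S100A14 (adjusted p = 0.000379, 0.00572 and 0.000100). With S100A16 (0.63, adjusted p = 0.0168) these were the 4 of 19 measured S100 and defence genes that rose, and 0 fell. Lipocalin-2, LCN2, was at 17.2 and 15.997 against 26.7 and 33.4 TPM but was not called (adjusted p = 0.0538).

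Of 23 NF-kB and cytokine genes 2 rose and 0 fell (8.70% called, against 1.99% of all tested genes). IL18, an inflammasome cytokine, rose from 50.2 and 39.0 to 107.9 and 125.1 TPM (1.37, SE 0.20, adjusted p = 0.0166), while on Day3 it was at 20.7 and 19.5 TPM. The neutrophil chemokine CXCL1 rose from 52.6 and 48.8 to 89.3 and 95.1 TPM (0.85, SE 0.18, adjusted p = 0.0477), with reads that may be shared with its paralogs CXCL2 and CXCL3. CXCL8 was at 0.86 (adjusted p = 0.117) and IL6 at 0.72 (adjusted p = 0.161), neither called. CASP1, the protease that matures IL-18, was outside the lists and rose from 2.14 and 2.12 to 4.81 and 5.97 TPM (1.02, SE 0.18). ISG15, a ubiquitin-like interferon-stimulated gene, was the 1 of 30 interferon-stimulated genes that rose (0.63, adjusted p = 0.0346), and it was lower than in Treated by a difference of -1.53 (adjusted p = 0.000177). The interferon list thus had 3.33% called, near the 1.99% of all tested genes.

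CD44 (chr11:35138870-35232402), the hyaluronan receptor that is often used as a surface marker of tumour-initiating cells, was at 11.7 and 10.6 TPM in Control. In Extracted it was at 26.7 and 41.3 TPM (1.49, SE 0.22, adjusted p = 0.0162). The groups did not overlap, Day1 was at 35.01 and 23.05 TPM, and Treated stood higher at 85.0 and 73.4 TPM (Extracted minus Treated -1.23, adjusted p = 0.0106). SOX9, a progenitor transcription factor, rose from 4.72 and 4.62 to 9.23 and 9.77 TPM (0.89, adjusted p = 0.0209). Those 2 were the rises among 19 stem-cell-associated genes, of which 0 fell and whose median was -0.01. ALDH1A1 (-0.67, adjusted p = 0.133), PROM1, which encodes CD133 (-0.54, adjusted p = 0.126), LGR5 (-0.55, adjusted p = 0.268) and SOX2 (0.08) were not called. SOX3, outside that list, was called at low levels, 2.22 and 1.55 TPM against 6.10 and 6.89 TPM (1.39, SE 0.23, adjusted p = 0.0209).

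Genes for attachment and matrix moved in both directions. LAMA3, the alpha chain of laminin-332, the anchoring laminin of epithelia, was at 170.5 and 149.1 TPM in Control and at 338.4 and 411.1 TPM in Extracted (1.22, SE 0.17, adjusted p = 0.0145). ITGA3, which encodes a subunit of a laminin-332 receptor, was at 102.5 and 83.3 against 159.2 and 213.4 TPM (0.99, SE 0.20, adjusted p = 0.0416). On Day3 LAMA3 had been at 78.4 and 77.3 TPM, below Control (-1.02, adjusted p = 0.00856), and Extracted exceeded Day3 by 2.25 (adjusted p = 0.000119). These 2 genes were the ones called higher among 22 integrin, laminin and hemidesmosome genes, and 0 were called lower. Of the 22, 9 were higher and 9 lower in both Extracted libraries than in both Control libraries, with differences from -0.94 to 1.22. At an unadjusted p under 0.05 in limma 4 were higher and 6 lower. With nuclear protein-coding genes alone 3 were called higher and 4 lower. LAMB3 (0.17), which encodes another chain of laminin-332, and the chains of its other receptor, ITGA6 (0.18) and ITGB4 (0.22) were not called.

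In the interstitial matrix FN1 (chr2:215360440-215436172), which encodes fibronectin, fell from 207.2 and 219.0 TPM to 79.0 and 93.0 TPM (-1.30, SE 0.12, adjusted p = 0.00333). Its 2 Treated libraries were at 229.6 and 188.8 TPM, on either side of the Control values, and Extracted was below Treated by a difference of -1.27 (adjusted p = 0.000525). On Day3 FN1 was at 74.0 and 74.3 TPM, and Extracted did not differ from it by the test (0.21, adjusted p = 0.285), though it did with median-of-ratios scaling (FN1 0.28, adjusted p = 0.0431). COL5A2, a fibrillar collagen chain, was likewise low both on Day3 and in Extracted, with 28.3 and 25.4 TPM in Control, 8.63 and 7.17 on Day3 and 9.79 and 8.42 in Extracted (-1.46 against Control, adjusted p = 0.00500). Of the 27 measured genes of the matrix list, which does not hold COL5A2, NID2 or SULF1, 3 rose and 4 fell. The falls were FN1, the matricellular protein SPARC (-1.10, adjusted p = 0.0438), the collagen crosslinker LOX (-0.95, adjusted p = 0.0444) and the protease MMP10 (-0.62, adjusted p = 0.0450). MMP2, a gelatinase, rose from 4.82 and 4.44 to 11.5 and 15 TPM (1.33, SE 0.15, adjusted p = 0.00500), and the metalloproteinase inhibitors TIMP2 and TIMP3 rose by 0.54 and 0.58. NID2, a basement-membrane linker, rose from 21.9 and 15.7 to 39.3 and 55.0 TPM (1.28, SE 0.26, adjusted p = 0.0408). SULF1, an extracellular sulfatase that trims heparan sulfate, fell from 9.50 and 12.3 to 3.73 and 3.54 TPM (-1.35, SE 0.19, adjusted p = 0.0145).

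**Figure D2:**
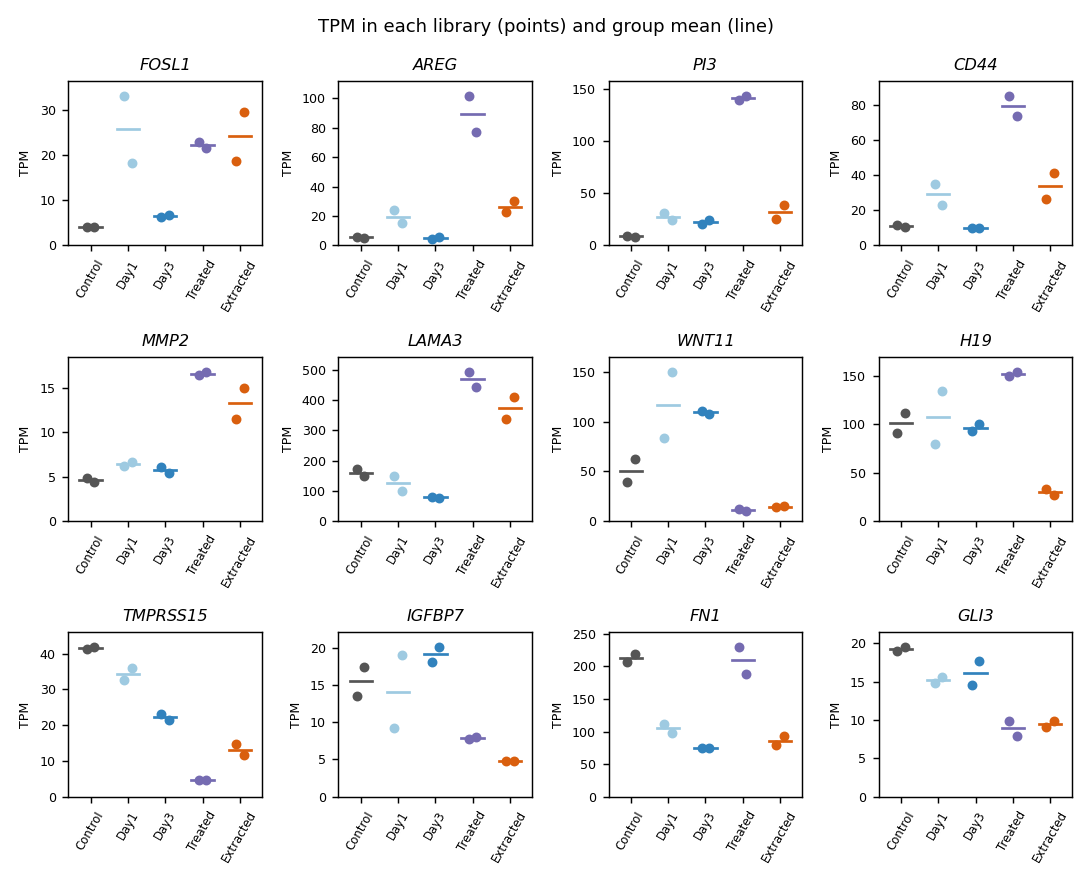
TPM of 12 genes (linear axes from 0), with a point for each of the 2 libraries of a group and a line at the group mean. For FOSL1 and MMP2 the Extracted libraries sit near the Treated libraries and above Control, for AREG, PI3 and CD44 between Control and Treated, and for H19 and FN1 the Extracted libraries sit below Treated and Control, with H19 at 33.6 and 27.3 TPM in Extracted.

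WNT11 (chr11:76186325-76210736), a secreted ligand of the non-canonical WNT branch, had the largest fall among the named genes. It was at 39.6 and 62.0 TPM in Control and at 14.4 and 14.7 TPM in Extracted (-1.70, SE 0.26, adjusted p = 0.0169). On Day3 it had been high, at 110.9 and 108.3 TPM, and Extracted lay below Day3 by -2.83 (adjusted p = 0.000199). In Treated WNT11 was at 11.9 and 10.4 TPM, not called against Extracted (0.36, adjusted p = 0.377). LEF1, a nuclear effector of canonical WNT signalling, fell from 7.003 and 8.03 to 3.37 and 2.08 TPM (-1.21, SE 0.23, adjusted p = 0.0323). The receptor FZD7 fell from 6.39 and 7.43 to 3.94 and 3.77 TPM (-0.70, adjusted p = 0.0499). Of 27 measured WNT pathway genes these 3 fell and 1, the extracellular protein DKK3, rose (0.54, adjusted p = 0.0334). The feedback targets AXIN2 (-0.51, adjusted p = 0.194) and RNF43 (-0.52, adjusted p = 0.147) and the effector CTNNB1 (0.05) were not called. TCF4, a basic helix-loop-helix factor that is not the WNT effector of the same alias, fell from 29.7 and 27.7 to 12.1 and 9.67 TPM (-1.33, SE 0.21, adjusted p = 0.0179).

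Among 22 TGF-beta and BMP pathway genes 2 fell and 0 rose, and the median was -0.36 against -0.02 over all genes. ID2, a helix-loop-helix inhibitor induced by BMP, was at 316.3 and 344.4 TPM in Control and 186.6 and 192.4 TPM in Extracted (-0.80, SE 0.12, adjusted p = 0.0168). FST, which encodes the activin antagonist follistatin, was at 122.0 and 130.8 against 72.6 and 78.9 TPM (-0.73, SE 0.13, adjusted p = 0.0274). The groups were separate for both, and Treated was lower still for ID2, at 64.4 and 62.8 TPM (Extracted minus Treated 1.56, adjusted p = 0.000171). AMOT, an angiomotin that binds YAP at junctions, fell from 59.5 and 75.02 to 22.8 and 21.4 TPM (-1.55, SE 0.22, adjusted p = 0.0145). Among 17 YAP target genes 1 rose, CTGF, from 95.1 and 93.1 to 126.9 and 150.0 TPM (0.55, SE 0.11, adjusted p = 0.0359), and 0 fell. CYR61 (0.13) and ANKRD1 (-0.44, adjusted p = 0.238) were not called.

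H19 (ENSG00000130600, chr11:1995176-2001470), the imprinted maternally expressed non-coding RNA next to IGF2, fell from 91.0 and 111.1 TPM to 33.6 and 27.3 TPM (-1.70, SE 0.21, adjusted p = 0.00889). The Extracted libraries were the lowest of all 10. In the Treated libraries H19 was at 149.4 and 154.4 TPM, above both Control libraries, and Extracted minus Treated was -2.29 (adjusted p = 0.000381). IGF2 was low in every library, at 2.06 and 2.13 TPM in Control and 0.578 and 0.594 TPM in Extracted (-0.96, adjusted p = 0.0832), and was not called. IGFBP7, a secreted protein that binds IGFs weakly, fell from 13.6 and 17.5 to 4.84 and 4.75 TPM (-1.50, SE 0.26, adjusted p = 0.0233). IGFBP5 fell from 5.83 and 6.89 to 2.51 and 3.06 TPM (-0.96, SE 0.13, adjusted p = 0.0142), after a mean of 37.5 TPM on Day3. With IRS2 higher, 1 of the 16 measured genes of the IGF axis rose and 3 fell. IGFBP3, at 254.3 and 245.0 against 140.8 and 148.0 TPM, was not called (-0.79, adjusted p = 0.0619).

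TMPRSS15 (chr21:18269116-18485879), which encodes enteropeptidase, a protease of the intestinal brush border, had the smallest adjusted p of all genes. It was at 41.2 and 41.8 TPM in Control and at 14.6 and 11.8 TPM in Extracted (-1.59, SE 0.12, adjusted p = 0.00243). Day3 lay between, at 23.2 and 21.6 TPM, and Treated was lowest at 4.63 and 4.52 TPM, so that Extracted exceeded Treated by 1.34 (adjusted p = 0.000381). SELENOP, a selenium carrier, fell from 40.3 and 55.2 to 16.9 and 13.9 TPM (-1.56, SE 0.25, adjusted p = 0.0201). Its Day3 values were 120.2 and 111.5 TPM, the difference from Day3 being -2.84 (adjusted p = 0.000198). MN1, a transcriptional coregulator, fell from 7.43 and 8.03 to 2.29 and 2.24 TPM (-1.42, SE 0.13, adjusted p = 0.00333). SAMD11 fell by 1.41, FAM198B by 1.32 and TACR1, the substance P receptor, by 1.54, the latter from 4.77 and 5.34 to 1.61 and 0.671 TPM. The named fall of TMEM189-UBE2V1 (-1.65) is uncertain, since this read-through gene shares its exons with TMEM189 and UBE2V1 and its 2 Extracted values were 1.34 and 4.05 TPM. BMF, a pro-apoptotic BH3-only gene that responds to detachment, fell from 34.6 and 44.5 to 16.2 and 16.9 TPM (-1.20, SE 0.16, adjusted p = 0.0129), and was the 1 of 18 apoptosis regulators that changed. The retinoic-acid-binding CRABP2 fell from 270.8 and 321.0 to 165.4 and 153.4 TPM (-0.88, adjusted p = 0.0334).

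The contractile list gave 3 falls and 0 rises of 23. TAGLN, an actin-binding protein of smooth muscle and stress fibres, fell from 10.5 and 12.99 to 4.50 and 3.90 TPM (-1.29, SE 0.25, adjusted p = 0.0362), close to its Day3 mean of 2.87 TPM (difference 0.43, adjusted p = 0.272). The myosin light chain MYL9 fell by 0.67 (adjusted p = 0.0337) and the actin crosslinker ACTN4 by 0.48 (adjusted p = 0.0461). GDF15, a stress-induced cytokine of the TGF-beta family, rose from 2.19 and 2.56 to 7.74 and 9.60 TPM (1.51, SE 0.26, adjusted p = 0.0244), and PTHLH, a parathyroid-hormone-like peptide, from 17.6 and 15.2 to 35.3 and 49.7 TPM (1.31, SE 0.18, adjusted p = 0.0145). EEF1A2, a translation elongation factor known from ovarian tumours, rose from 9.67 and 9.15 to 23.3 and 23.3 TPM (1.22, SE 0.16, adjusted p = 0.0129). The metal-binding MT2A rose from 50.9 and 56.5 to 114.8 and 131.5 TPM (1.18, SE 0.19, adjusted p = 0.0184), the 1 of 5 measured metallothioneins that was called, with reads that close paralogs may share. FTH1, the ferritin heavy chain, which has many processed pseudogenes, rose from 8559 and 9085 to 12576 and 13055 TPM (0.54, SE 0.10, adjusted p = 0.0257).

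Markers of the ovarian epithelium moved in both directions. Of 17 surface and serum markers 2 rose and 1 fell, among them KLK6, a kallikrein, higher from 30.5 and 30.8 to 44.8 and 48.3 TPM (0.59, adjusted p = 0.0258), and MUC1 from 34.4 and 41.0 down to 24.0 and 21.99 TPM (-0.69, adjusted p = 0.0274). MUC16, the CA-125 antigen, was at 37.6 and 56.5 against 57.2 and 61.3 TPM and was not called (0.35, adjusted p = 0.326). PAX8, the Mullerian lineage factor, was at 415.8 and 500.5 against 352.1 and 333.0 TPM (-0.41, adjusted p = 0.137). CDH1, which encodes E-cadherin, fell from 90.4 and 95.8 to 66.8 and 65.3 TPM (-0.49, SE 0.09, adjusted p = 0.0274), the 1 of 28 epithelial junction genes that was called. The junction list thus had 3.57% called, near the 1.99% of all tested genes. Vimentin, VIM, was at 1.66 and 1.84 against 2.04 and 2.08 TPM (0.15, adjusted p = 0.703), after 11.7 and 11.5 TPM on Day3, where it exceeded Extracted by the test (Extracted minus Day3 -2.04, adjusted p = 0.000173). Of 10 measured mesenchymal and transition genes, 2 rose (MMP2 and CD44) and 1 fell (FN1), genes that other lists here hold too. The keratin KRT23 rose from 42.8 and 42.5 to 75.2 and 82.8 TPM (0.87, adjusted p = 0.0178), the 1 of 14 keratins called.

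Genes of growth and of platinum response gave few calls or none. In the mitotic list limma called 0 of 25 genes, 0 had an unadjusted p under 0.05, and their differences ran from -0.26 to 0.21. MKI67, the proliferation marker, was at 62.1 and 67.9 TPM in Control and 54.4 and 59.0 in Extracted (-0.19, adjusted p = 0.618). Of 26 DNA replication genes and 30 DNA repair genes for platinum damage limma called 0, with medians of -0.15 and -0.11, and 3 and 1 were lower at an unadjusted p under 0.05. With nuclear protein-coding genes alone 2 and 1 of these were called lower. CCNE1, the cyclin that drives entry into S phase, was at 180.7 and 171.1 against 162.5 and 160.7 TPM (-0.12, adjusted p = 0.603). The cell-cycle inhibitor CDKN1C rose from 13.9 and 16.04 to 24.2 and 22.5 TPM (0.61, adjusted p = 0.0294), the 1 of 17 CDK inhibitors and G1 cyclins called, while CDKN1A, the inhibitor p21, was at 3.45 and 5.69 against 2.65 and 2.76 TPM (-0.56, adjusted p = 0.156). The death receptor gene FAS rose from 5.39 and 4.70 to 9.27 and 12.1 TPM (0.94, adjusted p = 0.0442). Among 9 measured ABC transporters (-0.46 to 0.14) and 12 copper and platinum handling genes (-0.42 to 0.19) limma called 0, and 1 of each list was lower at an unadjusted p under 0.05. ABCB1, the multidrug transporter, did not reach the filter. The angiogenic factor VEGFA was at 29.4 and 30.3 against 25.8 and 29.8 TPM (-0.10, adjusted p = 0.702).

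The 13 mitochondrially encoded mRNAs were all lower in both Extracted libraries than in both Control libraries, an order that 30.3% of all tested genes showed, yet limma called 0 of them and 9 had an unadjusted p under 0.05. In a fit of the 4 libraries alone 12 were called lower. Their differences ran from -0.86 to -0.30 with a median of -0.54. MT-ATP8, which overlaps MT-ATP6, had the highest level, 50695 and 45266 TPM in Control against 28024 and 26386 TPM in Extracted (-0.82, SE 0.20, adjusted p = 0.0709). Cytosolic ribosomal proteins lay on the other side, with 4 of 30 called higher (13.3%, against 0.857% of all tested genes), 0 lower, and a median of 0.28. The number called higher was 13 with median-of-ratios scaling and with nuclear protein-coding genes alone, 16 without small-RNA genes, 19 in a fit of the 4 libraries alone, and 0 when any 1 library was left out. RPL13 was at 649.0 and 699.8 against 928.5 and 979.7 TPM (0.50, SE 0.09, adjusted p = 0.0240), and RPL18 at 0.49, genes with processed pseudogenes that may share reads. The ATF4 and amino-acid response (21 genes, median 0.30), ER chaperones (18), heat-shock chaperones (16), glycolysis (17), cholesterol synthesis (21), NOTCH pathway (15) and MHC class I (15) lists had 0 called genes each with limma, and 8, 0, 2, 2, 3, 3 and 4 genes with an unadjusted p under 0.05. The ATF4 list had 6 genes called higher in a fit of the 4 libraries alone and 3 with median-of-ratios scaling.

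**Figure D3:**
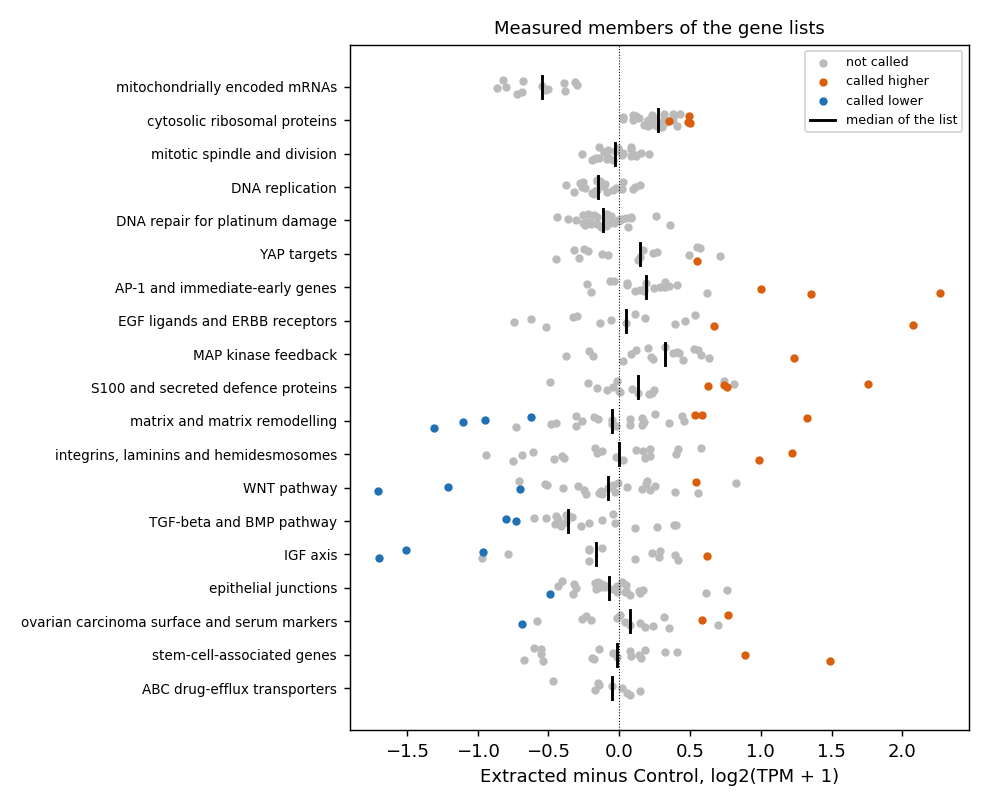
Each point is a measured gene of a list, placed by its difference between Extracted and Control in log2(TPM + 1), and the black bar is the list's median. Orange points were called higher and blue points lower. The 13 mitochondrial mRNAs lie left of 0, the 30 ribosomal proteins right of 0, the mitotic list around 0, and in most signalling and matrix lists 1 to 4 genes stand apart from a centre near 0.

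Survivors of the gel and survivors of cisplatin, both after the same recovery, were compared directly. Extracted was higher than Treated in 1345 genes (8.87%) and lower in 491 (3.24%). This balance is unsettled: with median-of-ratios scaling 719 were higher and 963 lower, with the compared groups alone 37 and 92, and the higher count was 62 without Extracted replicate 2 and 2787 without Treated replicate 1. Small-RNA genes held 14.7% of the TPM in Treated replicate 2 and 0.391% in replicate 1, and over the 5936 genes with a Control mean of at least 20 TPM the median difference from Control was -0.31 in replicate 2 and -0.09 in replicate 1. With small-RNA genes removed 1011 genes were higher and 730 lower than in Treated. Of the 130 genes called higher against Control, 13 were called higher than Treated too and 31 lower. Of the 172 called lower, 12 were called lower than Treated too and 41 higher. Most calls against Control thus had none against Treated. WNT11 (0.36), SELENOP (-0.53), AMOT (-0.29), LAMA3 (-0.33), IL18 (0.05) and MMP2 (-0.32) are examples, with Extracted minus Treated in brackets. The genes named next were picked because they were called against Control and differed from Treated in the same direction. Both differences share the 2 Extracted libraries, so an error in those libraries enters both. Their common direction therefore adds no support to either call. NMU, the peptide neuromedin U, was at 246.5 and 226.2 TPM in Control, 357.8 and 385.9 TPM in Extracted and 222.1 and 208.0 TPM in Treated (0.65 against Control, adjusted p = 0.0182; 0.79 against Treated, adjusted p = 0.00275). KLRG2, a lectin-like receptor gene, was at 8.79 and 9.77, 16.2 and 17.9, and 11.6 and 8.93 TPM in the same order (0.81 and 0.69). TMOD1, which caps actin filaments, was at 13.3 and 12.3, 21.9 and 25.2, and 17.2 and 13.8 TPM (0.82 and 0.58), and it did not differ from Day3 by the test (-0.06, adjusted p = 0.787). SNHG19, a host gene of small nucleolar RNAs, was higher by 0.96 against Control and 0.61 against Treated. The call of SNHG19 against Treated was lost with median-of-ratios scaling (0.45, adjusted p = 0.169) and without Treated replicate 1 (0.34, adjusted p = 0.0962), and those of KLRG2 and TMOD1 without Treated replicate 2 (0.52 and 0.43, adjusted p = 0.0934 and 0.120) and without either Extracted library. DNAJC25-GNG10 was higher too (0.64 and 0.65), but as a read-through gene it shares exons with its neighbours.

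On the lower side stood H19 and FN1, described above, with MUC1, PLAT and MMP10. MUC1, a membrane mucin, was at 56.4 and 65.3 TPM in Treated, so that Extracted fell on the other side of Control from it (Extracted minus Treated -1.36, adjusted p = 0.000379). PLAT, the tissue plasminogen activator, was at 10.9 and 11.8 TPM in Control, 6.88 and 7.12 in Extracted and 23.0 and 19.8 in Treated (-0.63 and -1.48, adjusted p = 0.0323 and 0.000171). MMP10 was at 5.88 and 5.90, 3.46 and 3.52, and 11.9 and 11.1 TPM (-0.62 and -1.48). For these 3 genes both Extracted libraries were the lower and both Treated libraries the higher side of Control. Among the 14 largest rises the opposite relation was seen for AREG, PI3, CD44, EEF1A2 and DUSP5, which were higher than Control yet lower than Treated (-1.04, adjusted p = 0.00620, for EEF1A2; -0.51, adjusted p = 0.0423, for DUSP5).

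**Figure D4:**
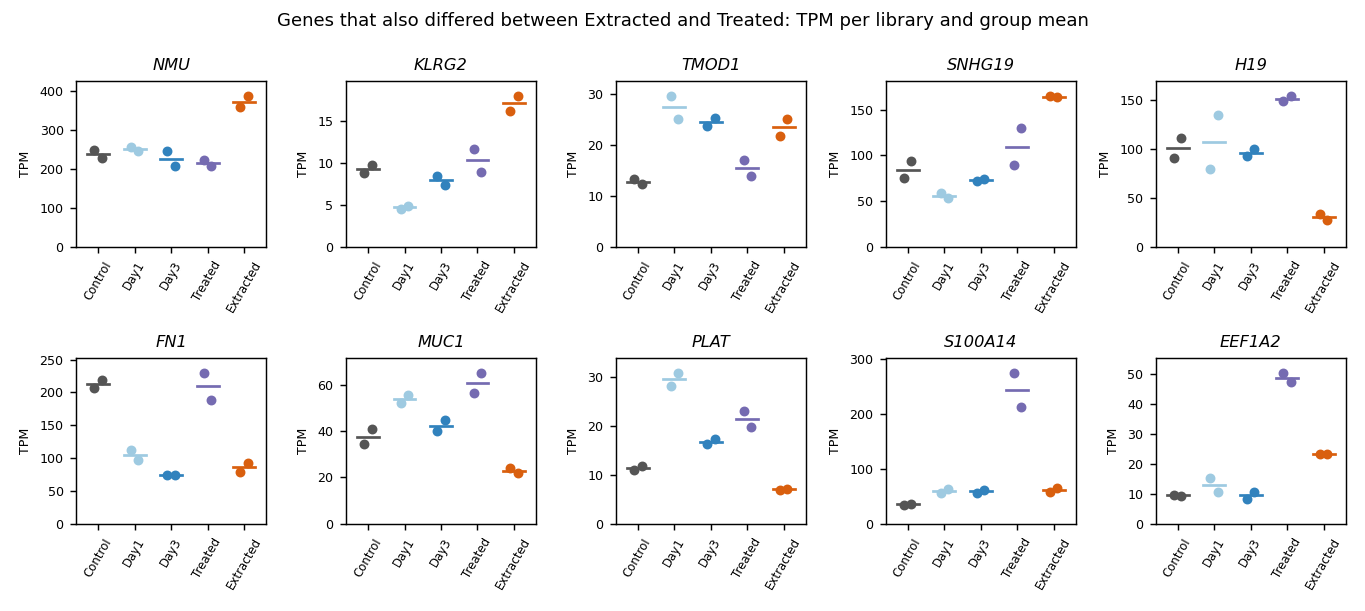
TPM of 10 genes that differed between Extracted and Treated as well as between Extracted and Control (linear axes from 0, points are libraries, lines are group means). NMU, KLRG2 and SNHG19 are highest in Extracted, H19, MUC1 and PLAT are lowest there, and S100A14 and EEF1A2 lie between Control and Treated.

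Against Day3, the last time point in the gel, Extracted was higher in 955 genes (6.3%) and lower in 1644 (10.8%). With median-of-ratios scaling the balance turned, to 1629 higher and 1511 lower. Of the named genes above, the values on Day3 fell into different orders. IL18, LAMA3 and EGR1 were below Control on Day3 (-1.10, -1.02 and -1.07, adjusted p = 0.0122, 0.00856 and 0.00279) and above it in Extracted. WNT11, SELENOP and IGFBP5 were above Control on Day3 (1.13, 1.28 and 2.39, adjusted p = 0.0257, 0.0159 and 5.37e-05) and below it in Extracted. FN1, COL5A2, ID2, FST, LEF1 and TAGLN were below Control at both times. AMOT, H19 and CD44 had Day3 differences from Control of -0.06, -0.06 and -0.13, none of them called. Day3 and Extracted are set against the same 2 Control libraries, so an error in those libraries enters both differences.

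The position of the genes was not used to choose them. In 282 windows of 5 Mb with at least 20 tested genes, the median difference ran from -0.26 to 0.20, and the 4 windows with the lowest medians were next to each other, from 25 to 45 Mb on chromosome 6. There 13 of 306 genes were called lower and 0 higher, 80.1% had a difference below 0 against 52.6% of all tested genes, and the median was -0.24. From 45 Mb on along the same chromosome the median of 366 genes was 0.08, with 5 called higher and 3 lower. The limits of this stretch were set after these medians had been seen. Its low median and its share below 0 follow from that choice, so its values are a description. Neighbouring genes are not independent of each other, and no test was made of these windows.

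The window with the most calls was on chromosome 19, from 35 to 40 Mb, with 13 of 138 genes lower and 0 higher. A run of called genes there reaches into the next window, and its limits, from the start of SIPA1L3 to the end of SERTAD3 (chr19:37907228-40444705, GRCh38), were set after its values had been seen, so its counts are a description. Inside it 16 of 73 tested genes were called lower (21.9% against 1.99% of all genes) and 0 higher. AKT2, a kinase of the PI3 kinase pathway, was at 831.8 and 946.5 TPM in Control and 494.9 and 512.3 TPM in Extracted (-0.82, adjusted p = 0.00500). PLEKHG2, a guanine nucleotide exchange factor, was at 303.7 and 330.4 against 165.1 and 162.8 TPM (-0.95, adjusted p = 0.00500). FBL, the nucleolar methyltransferase fibrillarin, was at 2562 and 2472 against 1873 and 1856 TPM (-0.43, adjusted p = 0.0269), and PSMC4, a proteasome ATPase, at 1355 and 1364 against 1032 and 1051 TPM (-0.38, adjusted p = 0.0450). The group also held SIPA1L3, CATSPERG, PSMD8, ACTN4, ECH1, SIRT2, AC011445.1, SAMD4B, MED29, C19orf47, PLD3 and SERTAD3, genes of unlike function.

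Among the 39 genes of that run with a Control mean of at least 20 TPM the median difference was -0.38, 35 had both Extracted libraries below both Control libraries, and the 2 Extracted libraries gave medians of -0.36 and -0.38 relative to the Control mean. Over all 5936 genes of that level the median was 0.01. In the 2.5 Mb before the run the median over 20 such genes was -0.19, and in the 2.5 Mb after it, over 10 genes, -0.07. The same 39 genes had medians of 0.09 and 0.11 in the Day3 libraries and of -0.72 and -0.83 in the Treated libraries, where the medians of all 5936 genes of that level were -0.09 and -0.31. Both kinds of survivors lay below Control here, with Extracted between Control and Treated.

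**Figure D5:**
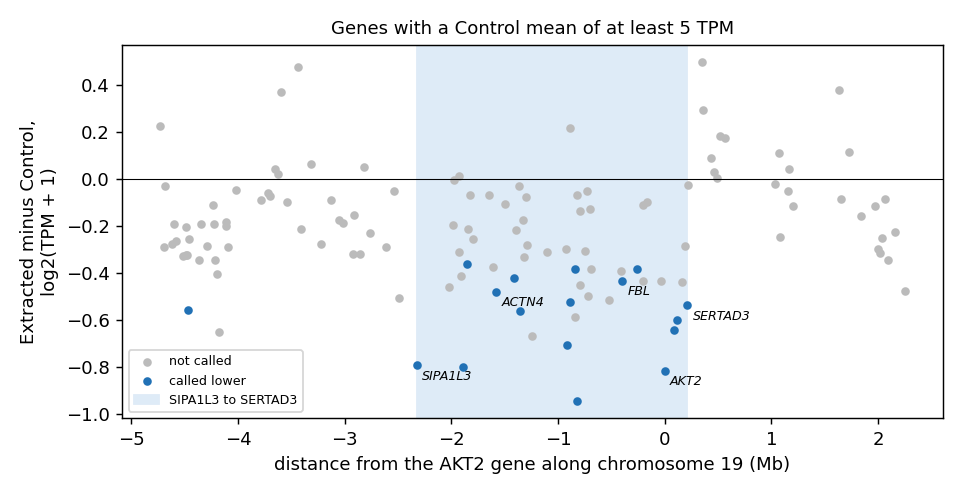
Difference between Extracted and Control in log2(TPM + 1) for genes on chromosome 19 with a Control mean of at least 5 TPM, against the distance of the gene's start from that of AKT2 in Mb. Blue genes were called lower and grey genes were not called. Within the shaded run from SIPA1L3 to SERTAD3 most genes lie below 0, and the values return to around 0 just after it.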

How the data were processed

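The files used hold TPM per gene and library, as deposited by the authors. The submitters' processing notes name Trimmomatic, STAR and Cufflinks and the build GRCh38. No version, annotation release, strand setting or depth is stated in the sources used here. Values of 91 entries that repeat an Ensembl identifier were added to that identifier, which gave 58222 genes. Positions came from GENCODE release 29, which held 99.5% of the identifiers.

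Values were put on the scale log2(TPM + 1), with a pseudocount of 1, and tested with limma (version 3.58.1, R version 4.3.3) for genes with at least 1 TPM in 2 or more of the 10 libraries. The model had 5 group means, a trend of variance with level, and 5 residual degrees of freedom. Tests were two-sided with Benjamini-Hochberg adjustment over 15167 genes, and calls were made under 0.05. The fit was tested on simulated data. Other software was pandas 2.3.3 and NumPy 2.4.6 under Python 3.11.15, with plots from Matplotlib 3.10.9.

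The comparison, its 54 gene lists and the alternatives were chosen with earlier results of these data known. The text names the 14 called genes that rose most and the 14 that fell most, given a mean of at least 5 TPM in the higher group, separate groups and no clone-like or small-RNA name. It names up to 3 called members of each list described, and otherwise its 2 most abundant members. It also names 10 genes of prior interest and up to 5 genes each way that differed from Treated in the same direction. List members beyond these, CASP1, RGCC, IGF2 and the genes of the chromosome 19 run were picked after their values were seen. Lists are described by counts and medians without a test. Alternatives were 3 scalings, another pseudocount (0.1), tests of every gene or of those at 5 TPM or more, the compared groups alone, at least 2-fold, the replicate block, and each library left out. The date-like symbols that a spreadsheet had made of gene names were not used. Results for a few genes are not reported here.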

Additional observations from a re-analysis of the deposited data

How the results depend on the processing

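All 302 called genes kept their direction in every alternative in which they were tested, and no named gene changed sign while called. Genes called higher and lower were 130 and 172. They became 324 and 323 with median-of-ratios scaling, 240 and 798 with nuclear protein-coding genes alone, 332 and 305 without small-RNA genes, 335 and 318 with the compared groups alone, 48 and 51 with no filter, and 31 and 37 at 2-fold or more. Leaving out 1 library gave 0 to 13 higher and 2 to 6 lower. Without a library the lone one of its group was assumed to vary like the others, and the spread is estimated from few libraries. Against Day3 955 and 1644 genes became 1629 and 1511 with median-of-ratios scaling, 1498 and 1500 with nuclear protein-coding genes alone, 1506 and 2573 with the compared groups alone, 277 and 256 at 2-fold or more, and 330 to 492 and 491 to 639 without 1 library. Against Treated 1345 and 491 became 719 and 963 with median-of-ratios scaling, 1087 and 937 with nuclear protein-coding genes alone, 37 and 92 with the compared groups alone, 675 higher with no filter, and 68 and 144 at 2-fold or more. Without 1 library they were 62 to 2787 higher and 104 to 356 lower, the lowest and highest of the higher counts being those without Extracted replicate 2 and without Treated replicate 1. The scalings and filters keep the same libraries, the compared groups alone use fewer, and other causes were not tested. With the replicate number as a block 106 and 137 genes were called against Control. The correlations of replicate differences between groups ran from -0.02 to 0.09, so no strong effect shared by replicate number was seen. Such correlations cannot exclude a pairing by culture or batch, which the labels do not state. Taking each list in each direction, 41 counts were above 0, against 2, 0, 10 and 4 without Control replicate 1, Control replicate 2, Extracted replicate 1 and Extracted replicate 2. Depth is unknown, so no counting interval bounds a single value, and a TPM of 0 may be a failed estimate.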

Other observations

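Gene families outside the lists were looked at after the called genes had been seen, so their counts describe these libraries and support nothing further. In the Hedgehog pathway, in which the membrane protein Smoothened relays the ligand to the GLI transcription factors, 7 of 13 measured genes fell in Extracted and 0 rose, with a median of -0.59. Over all tested genes 1.13% were called lower and 0.857% higher. The co-receptor BOC was at 93.4 ± 11.7 TPM in Control and 42.5 ± 0.495 TPM in Extracted (SD, n = 2, log2 difference -1.11). GLI3 went from 19.3 to 9.52 TPM (-0.95), GLI2 from 4.33 to 1.67 (-0.99) and SMO from 10.0 to 5.37 (-0.79). The Treated means were 44.7 TPM for BOC, 8.92 for GLI3, 0.915 for GLI2 and 5.11 for SMO, none called against Extracted. Of the genes that fell, GPR161 alone was called against Treated (Extracted minus Treated 0.63, adjusted p = 0.0216). PTCH1 (-0.14) and GLI1 (0.14), the pathway's usual target genes, were not called, and GLI1 stayed below 1 TPM in both group means. Of 33 measured genes for axon guidance and neural adhesion 10 fell and 1, the plexin PLXND1 (0.63), rose, beside the same 1.13% and 0.857% over all tested genes. ALCAM went from 88.4 to 45.6 TPM (-0.94), TENM3 from 144.8 to 83.7 (-0.78) and the contactin CNTN1 from 5.59 to 1.81 (-1.20). Their Treated means were 31.4, 61.8 and 1.37 TPM, and of them ALCAM alone was called against Extracted (0.53, adjusted p = 0.0408).

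Host genes of small nucleolar RNAs, whose spliced transcripts carry the terminal oligopyrimidine start that ribosomal protein mRNAs also have, were higher in both Extracted libraries than in both Control libraries in 19 of 19 measured cases, an order that 27.3% of all tested genes showed. Of these 6 were called higher, beside 0.857% of all tested genes. SNHG5 was at 217.5 and 211.4 TPM in Control and 375.3 and 389.1 TPM in Extracted (0.83, SE 0.12, adjusted p = 0.0145), and GAS5 at 300.4 and 300.1 against 421.5 and 452.4 TPM (0.54, adjusted p = 0.0946). Their Treated means were 350.9 and 399.1 TPM, neither called against Extracted. SNHG4 and SNHG19 were called higher than in Treated (0.55 and 0.61, adjusted p = 0.0199 and 0.0421). As described above, the call of SNHG19 was lost with median-of-ratios scaling. For SNHG4 no alternative fit against Treated is given. Over all 81 measured cytosolic ribosomal protein genes 77 had a difference above 0 and 11 were called higher. Small-RNA genes were at 3.21% of the TPM in Extracted replicate 1 and 0.272% in replicate 2. The part of this share in the values of the host genes was not tested. Connexins of gap junctions changed in both directions. GJB2 rose from 16.9 and 14.3 to 27.8 and 30.0 TPM (0.85), and GJA1 fell from 19.96 and 20.5 to 9.44 and 9.56 TPM (-1.02), among 6 measured connexins.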
